A study of Mus musculus with 367 samples.

Results

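The genes that make, bind and break down hyaluronan were followed in tdTomato-high cells sorted from healing mouse wounds. The 9 members were chosen by name and are the synthases Has1, Has2 and Has3, the receptor Cd44, the binding proteins Vcan and Tnfaip6, and the breakdown genes Hyal1, Hyal2 and Cemip. All 9 were found among the 50600 genes of the deposited tables, by Ensembl identifier and GENCODE symbol. The cells came from Sm22-Cre;tdTomato mice of mixed background, in which Cre is driven by the promoter of Tagln (Sm22), a contractile gene, and switches on a lasting red label, so a labelled cell need not have been contractile when it was taken. Mice of 3 to 8 weeks by the labels received a dorsal excisional wound of 1.5 cm on each side. The paper's methods give a narrower range of age with the same upper limit. Viable labelled cells were sorted on post-wounding day (PWD) 12, 15 or 21, with wound tissue of 2 to 3 animals pooled for a time point. There was no unwounded or untreated group, and every group carried the same alleles.

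Single cells were held on a microfluidic chip made for cells of 17 to 25 µm, and full-length RNA was sequenced. The 367 cells form 7 chip captures, of which 3 are from PWD 12, 2 from PWD 15 and 2 from PWD 21. Of these cells 292 passed filters on depth, gene number and mitochondrial share, with 27 to 73 kept in a capture. The capture was taken as the replicate. Whether captures of the same day came from different mice is not given in the sources used here, so p-values measure the spread between captures, which may be technical.

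Kept cells were sorted into 3 kinds by fixed limits on marker RNA. A matrix cell had Col1a1 of at least 1000 FPKM, Rgs5 under 100 and Tyrobp under 50. A mural cell had Rgs5 of at least 500 and Tyrobp under 50, and a myeloid cell had Tyrobp of at least 500. FPKM is a fragment count scaled to the length of the gene and the depth of the cell. These limits gave 198 matrix, 57 mural and 26 myeloid cells, and 11 cells of no kind. Of 8 further markers of each kind, all 8 had their highest mean in the kind they stand for. The summed level of the 8 matrix markers (among them Col3a1, Dcn and Pdgfra) was 20977 to 36261 FPKM over the captures in matrix cells, 1941 to 14655 in mural cells and 18.9 to 11439 in myeloid cells. Col1a1 of at least 1000 FPKM was also found in 19 of 57 mural and 4 of 26 myeloid cells. Defining markers of mural cells were low in matrix cells (1.21 to 62.4 FPKM summed over 8 genes). Those of endothelial, lymphatic and T cells had a mean summed level of 0.257, 0.0345 and 0.0687 FPKM in matrix cells, and those of Schwann cells and keratinocytes 11.1 and 7.70. Tagln, whose promoter drives Cre, and Acta2, another contractile gene, had together a mean summed level of 400.5 FPKM in matrix, 2034 in mural and 119.1 in myeloid cells. Within 2-fold of a limit lay 21 kept cells for Col1a1, 4 and 8 for the limits of Rgs5 and 0 for those of Tyrobp. Among kept cells 6 pairs, each from 1 capture, had nearly equal profiles, with a correlation above 0.8 on the log scale against a median best match of 0.565. PWD 15 cells were shallower, with a median of 958848 to 968484 estimated fragments per kept cell in its captures against 1231180 to 2334920 in the others.

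Hyaluronan is a long unbranched sugar of the extracellular matrix that is spun out through the cell membrane by the HAS synthases. It is bound at the cell surface by CD44 and in the matrix by versican (Vcan), and TSG-6, the product of Tnfaip6, transfers heavy chains from inter-alpha-inhibitor onto it and so crosslinks it. Long chains are cut by HYAL2 at the cell surface, by HYAL1 in lysosomes and by CEMIP, and granulation tissue of healing skin is known to be rich in this polymer.

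On the mouse genome GRCm38, GENCODE places Has1 at chr17:17843323-17855205 on the minus strand, Has2 at chr15:56665627-56694539 on the minus strand and Has3 at chr8:106870242-106884566 on the plus strand. Cd44 lies at chr2:102811141-102901665 on the minus strand, Vcan at chr13:89655312-89742509 on the minus strand and Tnfaip6 at chr2:52038009-52056686 on the plus strand. Hyal2 (chr9:107567945-107572779) and Hyal1 (chr9:107576927-107581710) are neighbours on the plus strand, 4147 bases apart, and Cemip is at chr7:83932857-84086502 on the minus strand. Libraries did not keep strand. Exons of Has2 share 182 bases with those of its antisense gene Has2os, and exons of Has3 share 352 with those of Chtf8 on the other strand. Reads there cannot be told apart. Exons of Hyal1 share 1920 bases with Naa80 and 159 with Hyal3, so its values depend on how the counting split those reads. Cd44 and Vcan have 9 annotated transcripts each, and their FPKM rests on the lengths that RSEM assigned.

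The promoters of Tnfaip6 and Vcan are shown because these members differed most between the kinds of cells, and that of Cd44 for contrast, since no test on it passed. Each sequence is from RefSeq (GRCm38.p6), runs 5′ to 3′ on the strand of the gene and covers 250 bases before to 50 after its start in that source. For Tnfaip6 that start lies past the GENCODE start given above. Part of the bases before it is thus inside the gene as GENCODE places it. Capitals mark matches, on either strand, to any of 4 motifs. The first searched was the TATA box, with the letters TATAAA, which was in 13.6% of 32817 promoters of this length. The CCAAT box, spelled as in its name, was in 37.4% of those promoters. The GC box was searched as GGGCGG and was in 35.6% of them. The last was the AP-1 motif, written TGANTCA with any base at N, in 7.81% of them. The windows are chr2:52037863-52038162 (plus strand), chr13:89742463-89742762 (minus strand) and chr2:102901616-102901915 (minus strand).
Tnfaip6: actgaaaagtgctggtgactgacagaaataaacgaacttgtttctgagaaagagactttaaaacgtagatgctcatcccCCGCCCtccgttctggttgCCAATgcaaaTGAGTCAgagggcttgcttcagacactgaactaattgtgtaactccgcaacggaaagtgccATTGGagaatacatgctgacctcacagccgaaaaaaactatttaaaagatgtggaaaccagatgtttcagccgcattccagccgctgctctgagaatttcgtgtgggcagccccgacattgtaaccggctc
Vcan: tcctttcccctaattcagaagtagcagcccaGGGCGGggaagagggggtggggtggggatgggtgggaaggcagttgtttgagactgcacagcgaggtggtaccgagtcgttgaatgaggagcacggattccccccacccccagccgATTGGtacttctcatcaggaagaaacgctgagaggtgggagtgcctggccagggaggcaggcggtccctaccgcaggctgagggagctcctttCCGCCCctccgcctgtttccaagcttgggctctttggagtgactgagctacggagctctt
Cd44: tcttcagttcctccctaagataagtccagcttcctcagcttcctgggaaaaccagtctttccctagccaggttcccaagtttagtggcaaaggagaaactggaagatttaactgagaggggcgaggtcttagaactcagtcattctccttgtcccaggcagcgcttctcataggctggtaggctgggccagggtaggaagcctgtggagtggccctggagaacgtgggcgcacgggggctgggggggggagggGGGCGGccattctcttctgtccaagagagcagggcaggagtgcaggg
In Tnfaip6, CCAAT boxes began 152 and 81 bases before the start, an AP-1 motif 142 bases before it and a GC box 171 bases before it. In Vcan, a CCAAT box began 103 bases before the start and GC boxes 219 and 10 bases before it. The window of Cd44 held a GC box past its start and no other motif of the set. No TATA box was in these 3 windows. A match in these windows is a description of letters only.

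The first question was which of the labelled cells carried RNA of each member. Vcan, Tnfaip6 and Cd44 were common and the other 6 members were sparse. A gene counted as detected with an FPKM above 0. Vcan was detected in 195 of 198 matrix cells, Tnfaip6 in 171 and Cd44 in 149. All 3 together were found in 128 matrix cells, which is 64.6% (exact 95% binomial interval 57.6 to 71.3%), in 18 of 57 mural cells and in 5 of 26 myeloid cells. RNA of at least 1 of the 9 members was present in every matrix cell, while 5 mural and 4 myeloid cells had none. Intervals and limits on shares cover counting error only.

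**Figure D1:**
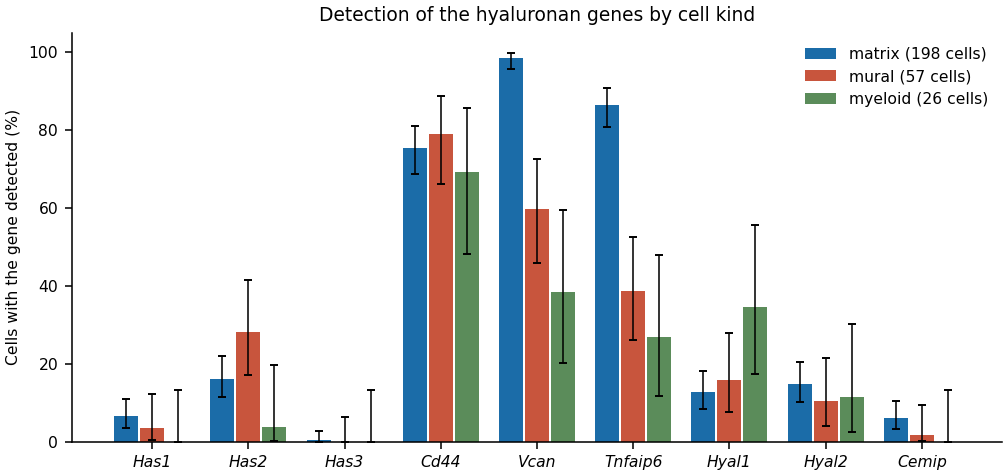
Percent of kept cells in which each gene was detected (FPKM above 0), in 198 matrix, 57 mural and 26 myeloid cells; bars are shares over all cells of a kind and whiskers exact 95% binomial intervals. Vcan and Tnfaip6 stand at 98.5% and 86.4% in matrix cells and lower in both other kinds, while Cd44 lies between 69.2% and 78.9% in all 3.

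Among the synthases, Has2 was the most often detected. It was found in 32 of 198 matrix cells (16.2%, interval 11.3 to 22%), in 16 of 57 mural cells (28.1%, 17.0 to 41.5%) and in 1 of 26 myeloid cells (3.85%). Has1 was found in 13 matrix and 2 mural cells and in 0 of 26 myeloid cells, a count that leaves room for a share of 11.5%. Has3 was found in 1 matrix cell at 1.1 FPKM and in 0 of 57 mural cells, where 5.26% is the limit of what could be missed. A cell with RNA of any synthase was thus in the minority, at 43 of 198 matrix cells (21.7%, 16.2 to 28.1%) and 18 of 57 mural cells (31.6%, 19.9 to 45.2%). Has1 and Has2 were seen together in 3 matrix cells and in no mural cell, with the same limit of 5.26%.

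The Has2 signal sat in few cells. In matrix cells its capture means were 0.00419, 1.09 and 0.258 FPKM at PWD 12, 5.77 and 2.47 at PWD 15, and 3.25 and 2.58 at PWD 21. Every PWD 12 value lay below every later one, but without the highest cell of each capture they overlapped, since PWD 12 capture 2 was then at 0.346 and PWD 21 capture 1 at 0.294 FPKM. The 5 highest of the 198 cells held 83.1% of all Has2 FPKM, and the highest cell, at 160.7 FPKM in capture 1 of PWD 15, held 30.8%. Of 32 matrix cells with Has2, 7 reached 10 FPKM, and Tnfaip6 was detected in all 7, against 86.4% of all matrix cells. In mural cells 7 reached 10 FPKM, and Tnfaip6 was detected in 3 of them. For Has2, which has 1 annotated transcript of 4237 bases, 1 fragment was worth a median of 0.166 FPKM in matrix cells. By that measure 9 of the 32 detections rested on at most 2 fragments, and the median was 8.73 fragments. Median depth was 1629340 fragments in matrix cells with Has2 and 1496290 in those without it.

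In mural cells the capture means of Has2 were 2.62, 1.84 and 2.10 FPKM at PWD 12, 19.9 in capture 1 of PWD 15 and 0.0638 in capture 1 of PWD 21. The high value of PWD 15 was mostly a single cell at 310.6 FPKM, and without it that mean was 2.82. In the PWD 21 capture, 3 of 8 cells had Has2 but none above 0.28 FPKM. Mural cells with Has2 had a median of 1652120 fragments against 1125220 in those without, and the part of depth in the mural share was not tested.

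Has1 was rarer and more uneven than Has2. Its capture means in matrix cells were 0, 16.6 and 0.545 FPKM at PWD 12, 0.135 and 6.69 at PWD 15, and 0.481 and 0.364 at PWD 21. A cell at 423.8 FPKM made up most of the PWD 12 value of 16.6, which was 0.310 without it. In mural cells Has1 was found at 164.3 FPKM in a cell of PWD 12 capture 2 and at 5.89 FPKM in a cell of capture 1 of that day. Both cells were among the 19 mural cells with Col1a1 of at least 1000 FPKM.

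**Figure D2:**
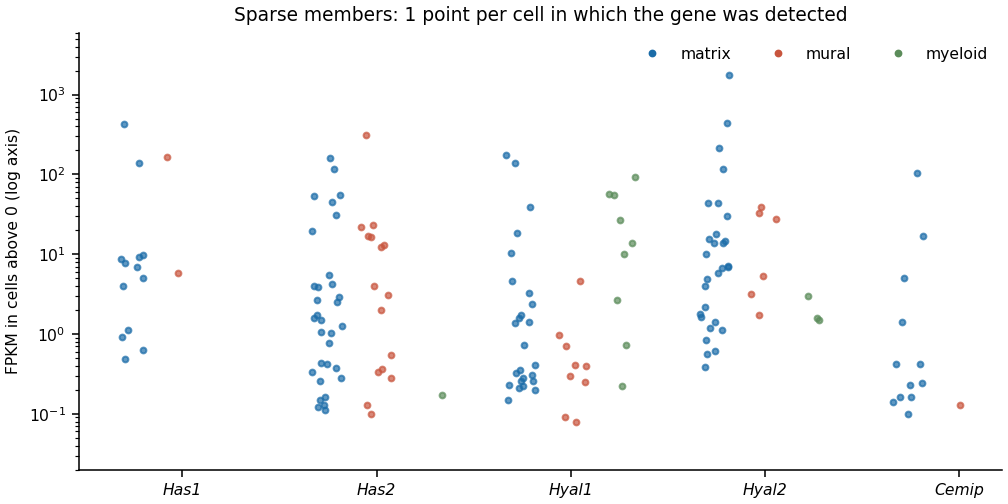
FPKM on a log axis of Has1, Has2, Hyal1, Hyal2 and Cemip in each cell where the gene was detected, coloured by matrix, mural or myeloid kind; each point is a cell. Most detections lie under 10 FPKM, with single cells at 423.8 (Has1), 310.6 (Has2) and 1781 FPKM (Hyal2).

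Versican, the large proteoglycan that binds hyaluronan in the matrix, was present in nearly every matrix cell. Its capture means there were 72.1, 63.5 and 92.9 FPKM at PWD 12, 140.8 and 142.8 at PWD 15, and 187.2 and 74 at PWD 21. In mural cells they were 26.2, 27 and 13.3 FPKM at PWD 12, 21.4 in capture 1 of PWD 15 and 70.5 in capture 1 of PWD 21. Each mural mean was below the matrix mean of the same capture. In the 4 captures with at least 3 myeloid cells they were 0.885 (PWD 12 capture 2), 13.4 (PWD 15 capture 2), 12.4 (PWD 21 capture 1) and 0.460 FPKM (PWD 21 capture 2). Each of these lay below the matrix mean of its capture.

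Tnfaip6, whose product crosslinks hyaluronan with heavy chains, had matrix means of 53.7, 176.7 and 119.7 FPKM at PWD 12, 116.5 and 133.2 at PWD 15, and 118.8 and 174.9 at PWD 21. The highest cell, at 1538 FPKM, was a matrix cell of PWD 21 capture 2. Mural means were 12.5, 60.4 and 30.8 FPKM at PWD 12, 33.8 at PWD 15 and 21.5 at PWD 21, again below the matrix mean in 5 of 5 captures. Myeloid means were 13, 157.4, 7.66 and 0.0967 FPKM in the 4 captures named for Vcan. The value of 157.4, from 4 cells of PWD 15 capture 2, was above the matrix mean of that capture, and the other 3 were below theirs.

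Tnfaip6 and Vcan in myeloid and mural cells moved with Col1a1. The 4 myeloid cells with Col1a1 of at least 1000 FPKM had Tnfaip6 at 143.1, 292.3, 337.5 and 38.3 FPKM and Vcan at 8.44, 4.08, 47 and 61.9 FPKM. In the other 22 myeloid cells neither gene reached 3 FPKM, with highest values of 0.43 for Tnfaip6 and 2.66 for Vcan. In mural cells the mean of Vcan was 71.4 FPKM in the 19 with Col1a1 of at least 1000 FPKM and 5.31 in the other 38, and that of Tnfaip6 was 80.4 and 5.75. The part of these cells' matrix RNA in the levels was not tested. The paper states that wells seen to hold more than a single cell were left out of its own analyses. Whether any mixed wells are among the cells used here was not tested.

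Cd44, the main surface receptor for hyaluronan, was found in all 3 kinds. Matrix means were 33.1, 59.3 and 52.5 FPKM at PWD 12, 38.7 and 91.7 at PWD 15, and 65.5 and 56.6 at PWD 21. Mural means were 82.8, 123.4 and 92.6 FPKM at PWD 12, 22.5 at PWD 15 and 341.2 at PWD 21, where a cell at 2293 FPKM raised the mean from 62.4. Myeloid means were 68.7, 21.6, 75.1 and 53.6 FPKM in the same 4 captures, and the ranges of the 3 kinds overlapped. In matrix cells the median depth was 1729750 fragments in those with Cd44 and 1038710 in those without, and the part of depth in its detection was not tested.

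**Figure D3:**
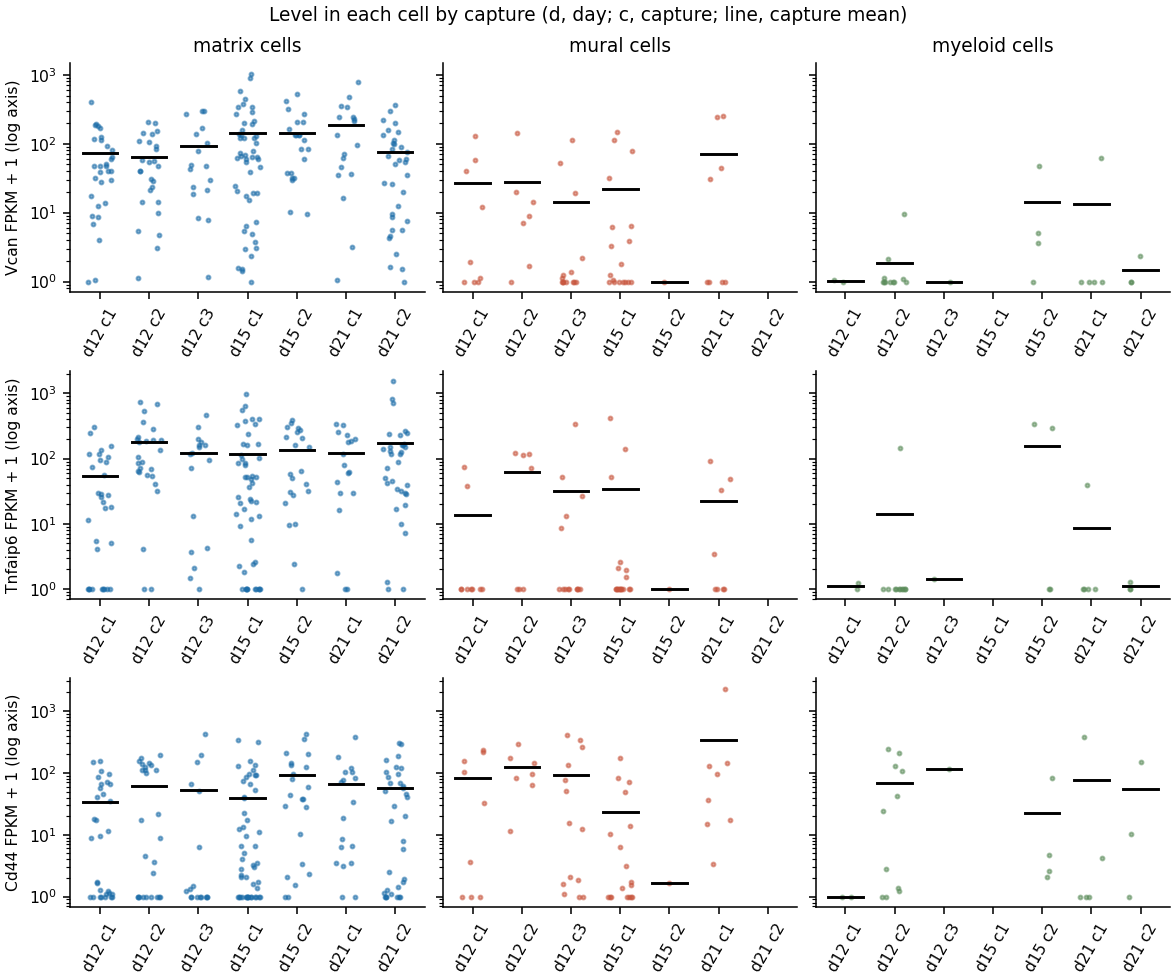
FPKM plus 1 on a log axis of Vcan, Tnfaip6 and Cd44 (rows) in each kept matrix, mural and myeloid cell (columns) by capture, with d for the day and c for the capture; points are cells and lines capture means. Vcan and Tnfaip6 fill the upper range in matrix cells and are mostly at 0 in myeloid cells, while Cd44 overlaps between the 3 kinds, with highest cells at 428.9, 2293 and 372.3 FPKM.

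The breakdown genes were sparse in all kinds. Hyal1, the lysosomal hyaluronidase, was found in 25 of 198 matrix cells (12.6%, 8.34 to 18.1%), 9 of 57 mural cells (15.8%, 7.48 to 27.9%) and 9 of 26 myeloid cells (34.6%, 17.2 to 55.7%). In 13 of the 25 matrix cells it was under 1 FPKM. Its matrix means were 0.127, 0.400 and 1.21 FPKM at PWD 12, 6.49 and 1.87 at PWD 15, and 0.0306 and 0.0885 at PWD 21. The means of PWD 15 rested on cells at 176.4 and 140.1 FPKM in capture 1 and at 38.6 in capture 2, and without the highest cell they were 3.02 and 0.118. The highest mean of any kind was in the 11 myeloid cells of PWD 12 capture 2, at 21.8 FPKM, where 5 cells reached 10 FPKM and the highest was at 92.3. In the other captures with at least 3 myeloid cells the means were 0, 0.682 and 0.0733 FPKM in PWD 15 capture 2, PWD 21 capture 1 and PWD 21 capture 2. Of 2 myeloid cells in PWD 12 capture 1, a single one had Hyal1, at 13.97 FPKM. The 6 myeloid cells that reached 10 FPKM all had Col1a1 under 1000 FPKM.

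Hyal2, which cuts long chains at the cell surface, was found in 29 matrix cells (14.6%), 6 mural cells (10.5%) and 3 myeloid cells (11.5%). Its matrix means were 13.3, 1.45 and 0.506 FPKM at PWD 12, 45.6 and 0.593 at PWD 15, and 0.506 and 1.28 at PWD 21. The value of 45.6 rested on a cell at 1781 FPKM and was 10.2 without it. Hyal1 and Hyal2, neighbours in the genome, were found together in 1 of 198 matrix cells, 1 of 57 mural cells and 3 of 26 myeloid cells, and all 3 myeloid cells with Hyal2 also had Hyal1. Cemip was found in 12 matrix cells, of which 8 were under 1 FPKM, in 1 mural cell at 0.13 FPKM and in 0 of 26 myeloid cells (limit 11.5%). Its highest value was 103.7 FPKM in a matrix cell of PWD 12 capture 1. Cemip was seen in 5 of 74 matrix cells at PWD 12, 7 of 72 at PWD 15 and 0 of 52 at PWD 21, where the limit is 5.77%. All 7 cells of PWD 15 came from capture 1. A synthase and any of these 3 breakdown genes were detected together in 18 matrix cells (9.09%, 5.48 to 14%) and 8 mural cells (14%).

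The second question was whether levels differed between the kinds within a capture. Capture means were compared on log2(mean FPKM + 1), a scale that understates the change of low genes, with limma, the capture as a block and Benjamini-Hochberg adjustment over all genes tested. Of the 9 members 6 had a mean of at least 1 FPKM and were tested for mural against matrix cells in 5 captures. Tnfaip6 was lower in mural cells by a log2 difference of -1.93 (SE 0.41, adjusted p = 0.0483 by limma, lower in 5 of 5 captures). Over all 13821 genes, 0.752% were called lower and 0.941% higher, with a median difference of -0.22. Relative to that median the difference of Tnfaip6 was -1.71. No member was called higher. The call of Tnfaip6 rests on every capture, since without any 1 of the 5 its adjusted p was 0.0980 to 0.149 by limma while the difference stayed between -2.03 and -1.81. Without 1 cell of each pair of nearly equal profiles it was 0.0605, and over all alternatives it ran from 0.000225 to 0.149 by limma. Vcan had a difference of -1.88 (SE 0.45, limma adjusted p = 0.0744), below 0 in 5 of 5 captures, and did not pass. The other differences were 0.95 (SE 0.49) for Cd44, 0.64 (SE 0.73) for Has2, -0.04 (SE 0.58) for Has1 and -1.41 (SE 0.88) for Hyal2, with limma adjusted p from 0.420 to 0.984. Over the 6 members the median was -0.72.

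Leaving out the mural cells with Col1a1 of at least 1000 FPKM, an alternative chosen after the data were seen, gave -5.35 for Tnfaip6 (limma adjusted p = 0.00926) and -5.30 for Vcan (limma adjusted p = 0.0168). Over all alternatives the limma adjusted p of Vcan ran from 0.000415 to 0.240. That choice removes mural cells by a matrix gene, and it raised the share of all genes called to 4.39% from 1.69%.

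In 4 captures 6 members were tested for myeloid against matrix cells. Vcan was lower in myeloid cells by -4.48 (SE 1.04, limma adjusted p = 0.0330) in 4 of 4 captures, and the groups did not overlap, as for 19.3% of all genes tested. Here 6.58% of 13056 genes were called, 4.89% lower and 1.69% higher, with a median difference of -1.0. Relative to that median the difference of Vcan was -3.48. Without any 1 of the 4 captures its limma adjusted p was 0.0577 to 0.106, with a difference of -4.86 to -4.08. Tnfaip6 had a difference of -3.64 (SE 1.23, limma adjusted p = 0.0887), below 0 in 3 of 4 captures, and did not pass. Without PWD 15 capture 2, the one capture with a positive difference, it was -4.93 (SE 1.34, limma adjusted p = 0.0646). An alternative chosen after the data were seen left out the 4 myeloid cells that had Col1a1 of at least 1000 FPKM. It took that capture below 3 myeloid cells and so dropped it too. In the 3 captures left the difference of Tnfaip6 was -7.23 (SE 1.18, limma adjusted p = 0.0196). That choice removes myeloid cells by a matrix gene. With it the share of all genes called was 10.6%, against 6.58% in the main fit, and the median difference was -1.23. Over all alternatives the limma adjusted p of Tnfaip6 ran from 0.00749 to 0.329. Has1 was listed at 0 in every myeloid cell, so no fold is given (limma adjusted p = 0.165). Has2 differed by -1.68 (SE 0.76, limma adjusted p = 0.178), with a single myeloid cell above 0. Cd44 differed by -0.43 (SE 0.93) and Hyal1 by 0.80 (SE 0.96), with limma adjusted p of 0.787 and 0.601. The median over the 6 members was -1.85.

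**Figure D4:**
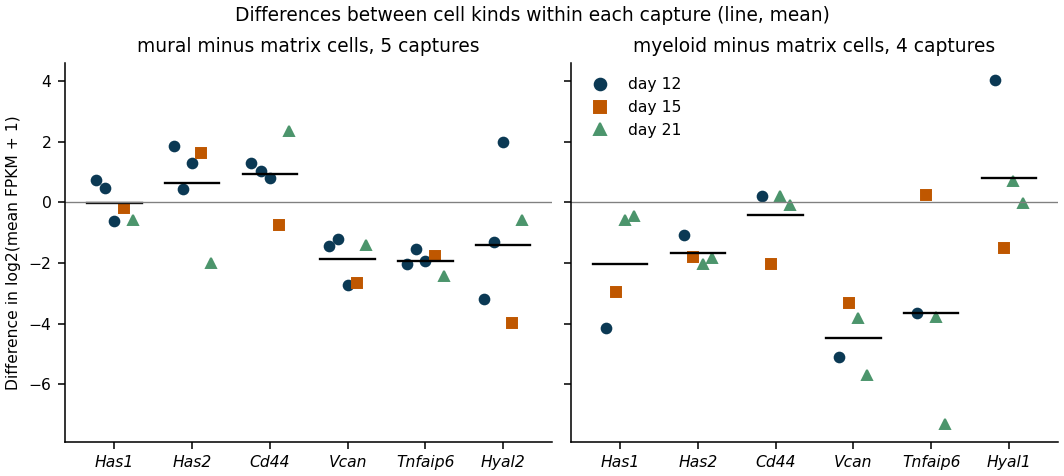
Difference in log2(mean FPKM + 1) between mural and matrix cells (left, 5 captures) and between myeloid and matrix cells (right, 4 captures) for the tested members; points are captures, marked by day, and lines their mean. Tnfaip6 lies between -2.41 and -1.53 in every mural comparison, and Vcan is below 0 in all captures of both panels.

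The same kinds were compared by the share of cells with each member. Over 5 captures Vcan was detected in 62.7% ± 14.8 of mural cells (SD, n = 5) and 99.0% ± 1.50 of matrix cells (SD, n = 5), and Tnfaip6 in 40.8% ± 13.5 and 85.3% ± 9.66. Both were lower in mural cells in 5 of 5 captures, and the exact sign-flip permutation p was 0.0625 for each (two-sided; adjusted over 9 members, 0.188), the smallest that 5 captures allow. Over all kept cells, mural cells were shallower, with a median of 1218930 fragments against 1526670 in matrix cells. The part of depth in the shares of Vcan and Tnfaip6 was not tested. Hyal1 was detected more often in mural cells in 5 of 5 captures, by 5.27 points ± 4.26 (SD, n = 5), with the same exact permutation p of 0.0625 (adjusted 0.188). The gap could be small, as in PWD 21 capture 1 with 12.5% against 11.1%. Of the 9 mural cells with Hyal1, 8 were under 1 FPKM. Median depth was 1969890 fragments in mural cells with Hyal1 and 1171200 in those without, and the part of depth was not tested. Has2 was detected in 27.2% ± 9.18 of mural and 15.4% ± 8.52 of matrix cells, higher in 4 of 5 captures, with an exact permutation p of 0.125 (adjusted 0.225). In the 4 captures with myeloid cells the shares were 41.2% for Vcan and 28.1% for Tnfaip6 against 99.3% and 92.7% in matrix cells. With 4 captures the smallest exact p is 0.125, so no test of a share could reach 0.05 there.

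The third question was whether matrix cells differed between days. No member was called between PWD 12, 15 and 21. The 7 captures entered 1 limma fit, and 7 members had a mean of at least 1 FPKM. Of all 13552 genes, 0% were called for PWD 15 against PWD 12 in either direction, 0.00738% for PWD 21 against PWD 12 and 0% for PWD 21 against PWD 15. The call for PWD 21 against PWD 12 was a single gene, Gm2564, named after its values were seen. At an unadjusted p under 0.05 the number of members was 0, 0 and 1 (Hyal1) of 7 in these 3 comparisons, against 5.84%, 7.14% and 5.50% of all genes.

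Has2 differed by a log2 value of 1.81 (SE 0.87) between PWD 15 and PWD 12 and by 1.50 (SE 0.87) between PWD 21 and PWD 12, with limma adjusted p of 0.871 and 0.762. Its captures did not overlap in either case, which held for 21.8% and 22.3% of all genes in these comparisons. Vcan differed by 0.91 (SE 0.48) between PWD 15 and PWD 12, again with no overlap, and by 0.64 (SE 0.48) between PWD 21 and PWD 12, with limma adjusted p of 0.871 and 0.806. Hyal1 differed by 1.61 (SE 0.87) between PWD 15 and PWD 12 and by -2.13 (SE 0.95) between PWD 21 and PWD 15, with limma adjusted p of 0.874 and 0.887. Tnfaip6 and Cd44 differed by no more than 0.46 in any of the 3 comparisons (SE 0.52 to 0.59). These values of Hyal1 rest on the 3 high cells of PWD 15 given above. Has1 and Hyal2 differed by -2.22 to 1.2 (SE 1.32 to 1.58), and a few high cells also weigh on their means, such as one with Has1 at 137.4 FPKM in PWD 15 capture 2, whose mean of 6.69 was 0.466 without it. The 3 comparisons share captures, since each day enters a pair of them.

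**Figure D5:**
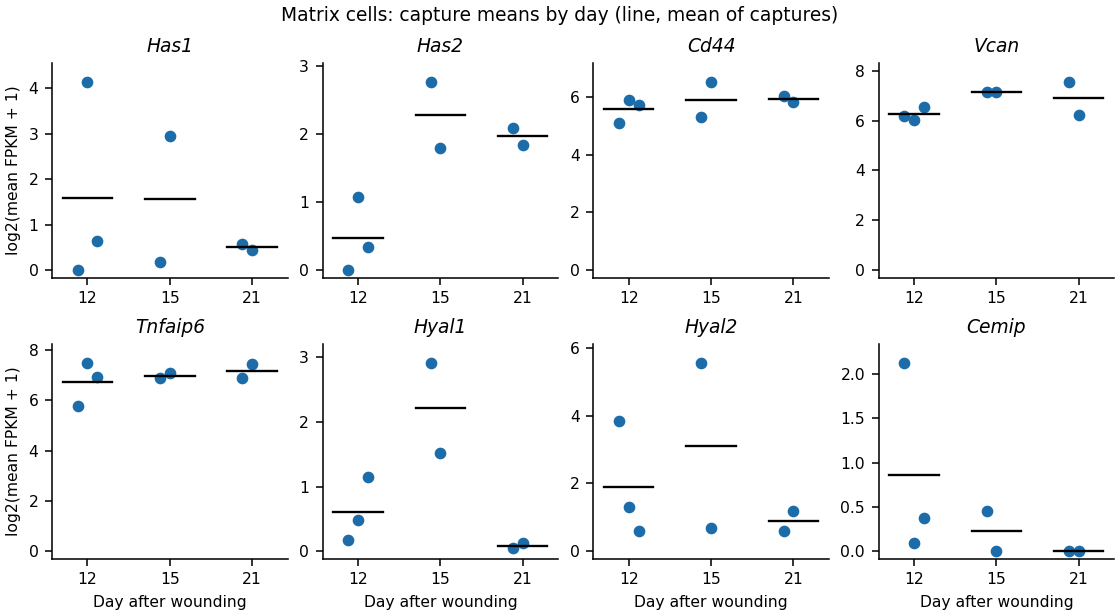
Capture means of matrix cells as log2(mean FPKM + 1) for 8 members at days 12, 15 and 21; points are captures and lines the mean of a day. Has2 captures of day 12 (at most 1.09 FPKM) lie below those of later days, while the days overlap for Tnfaip6 and Cd44 and Cemip is at 0 at day 21.

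The share of matrix cells with each member did not pass a test between days either. Over captures Has2 was detected in 11.4% at PWD 12, 22.1% at PWD 15 and 14.2% at PWD 21, and Cd44 in 65.2%, 80.5% and 85.6%. The exact permutation p over 210 assignments of captures was 0.352 for Has2 and 0.295 for Cd44, and for no member was it below 0.162 (Hyal2, adjusted 0.83). PWD 15 cells were shallower, and the part of depth in these shares was not tested.

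Within captures the members were at most weakly related across matrix cells, given as a mean Spearman correlation over 7 captures, in which cells share a chip and differ in depth. It was 0.27 for Tnfaip6 and Cd44 (range 0.07 to 0.44), 0.15 for Tnfaip6 and Vcan (-0.06 to 0.32), 0.13 for Vcan and Cd44 (-0.24 to 0.49) and 0.16 for Has2 and Tnfaip6 (-0.02 to 0.48). Among 8254 genes found in at least 25% of matrix cells, those most like Tnfaip6 were Svbp (0.38), Gm12328 (0.34) and Cnih4 (0.33). For Vcan they were Ndufs8 (0.32), Ptx3 (0.32) and Klf6 (0.32), and for Cd44 Slc35b1 (0.35), Cox7b (0.34) and Gatad2a (0.30). Ptx3 encodes a protein that takes part in crosslinking the hyaluronan matrix together with TSG-6. All these values are low, and a list led by the highest of 8254 is a description.

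Other genes of the pathway were counted from a list of 46 genes in 4 groups, with the antisense gene Has2os besides. For mural against matrix cells 24 of the 46 could be tested, 0 were called, and 20 had a negative sign, with a median of -1.03 against -0.22 over all genes. At an unadjusted p under 0.05 by limma were 9 of the 24, all with a negative sign, against 14.3% of all genes tested. The 9 enzymes and carriers that supply the sugar precursors were all tested, and 8 of 9 had a negative sign. Ugdh makes UDP-glucuronate and had a mean over captures of 37.8 FPKM ± 11.4 (SD, n = 7) in matrix cells and 9.78 ± 3.95 (SD, n = 5) in mural cells. Ptx3 was found in 122 of 198 matrix cells, with capture means of 7.46 to 26.6 FPKM, and its mural means were 2.92, 3.10, 2.99, 0.433 and 21.1 FPKM.

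For myeloid against matrix cells 22 of the 46 were tested, 3 were called lower and 1 higher, where 4.89% and 1.69% of all genes were. At an unadjusted p under 0.05 by limma were 13 of the 22, against 27.5% of all genes tested. Stab1, a scavenger receptor of macrophages, was higher, with myeloid means of 456.2, 357.9, 538.3 and 612.9 FPKM and matrix means of 0.108 to 28.4 over all 7 captures. Its log2 difference was 8.31 (SE 1.00, limma adjusted p = 0.00132). Lower were Gfpt2 (-3.87, SE 0.87) and Gnpnat1 (-3.32, SE 0.89), enzymes of the hexosamine pathway, and the hyaluronan receptor Layn (-3.71, SE 1.00). Their limma adjusted p was 0.0310, 0.0485 and 0.0492. Lyve1, the lymphatic hyaluronan receptor, and Stab2 were listed at 0 in every kept cell.

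Breakdown genes outside the members were far more often detected than Hyal1, Hyal2 and Cemip. Cemip2, a cell-surface hyaluronidase, was found in 148 of 198 matrix cells, 36 of 57 mural cells and 11 of 26 myeloid cells. Its matrix means were 17.0, 11.3 and 10.3 FPKM at PWD 12, 5.29 and 7.51 at PWD 15, and 8.86 and 3.89 at PWD 21. Each PWD 12 capture lay above all later ones, and such a lack of overlap held for 21.8% and 22.3% of all genes. The log2 differences of Cemip2 from PWD 12 were -0.89 (SE 0.74) at PWD 15 and -0.97 (SE 0.74) at PWD 21, with limma adjusted p of 0.904 and 0.815. Cemip2 was detected in 67 of 74, 56 of 72 and 25 of 52 matrix cells on these days, shares that were not tested. Hexa, a lysosomal enzyme that trims the fragments, had means of 417 FPKM ± 209 (SD, n = 4) in myeloid and 129 ± 30.4 (SD, n = 7) in matrix cells, with a limma adjusted p of 0.143. Itih5, of the family whose heavy chains are joined to hyaluronan, had matrix means of 5.29, 10.8 and 2.81 FPKM at PWD 12, 155.1 and 93.5 at PWD 15, and 134.4 and 113.5 at PWD 21. Its log2 differences from PWD 12 were 4.21 (SE 0.61) at PWD 15 and 4.25 (SE 0.61) at PWD 21, with limma adjusted p of 0.155 and 0.0971, and the captures did not overlap (21.8% and 22.3% of all genes). Itih1, Itih2 and Itih3, of the same family, were listed at 0 in every kept cell, and Itih4 was found in 3 kept cells. Of the 23 pathway genes tested between days 0 were called in any comparison. At an unadjusted p under 0.05 by limma were 3, 2 and 2 of them for PWD 15 against 12, PWD 21 against 12 and PWD 21 against 15, where 5.84%, 7.14% and 5.50% of all genes were. Has2os was found in 12 of 292 kept cells.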

How the data were processed

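RNA of single tdTomato-high wound cells was deposited by the authors as FPKM per gene and cell. Per the paper's methods and the labels, reads were aligned to mm10 with GENCODE mouse release 13 by Bowtie 1.0.0 and counted by RSEM, and the deposited tables hold FPKM only. The unit is not named in the tables and was read from the values and methods. Tests on counts need counts and were not run.

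Gene names and positions were taken from GENCODE release 21 on the same genome, which holds 50376 of 50600 identifiers. Estimated fragments per cell came from the steps between FPKM values of 9426 genes with 1 transcript of at least 1000 bp, with a fragment length of 300 bp assumed. The study states limits of 159000 aligned reads, 11000 expressed genes and 15% of counts in mitochondrial genes. Here the same limits were set on estimated fragments, genes above 0 FPKM and the share of FPKM on mitochondrial genes. These measures are not the same, so the kept cells can differ from those of the study. Among cells with enough fragments, 46 were over the mitochondrial limit. Kept cells had 173423 to 7988290 estimated fragments.

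Mean FPKM per kind and capture was computed for captures with at least 3 cells, and log2(mean + 1) was tested with limma 3.58.1 in R 4.3.3 with a variance trend, where the mean over samples reached 1 FPKM. Cut-off genes Col1a1, Rgs5 and Tyrobp were not tested between kinds. A call is an adjusted p under 0.05. Tests are two-sided. Shares were tested by exact permutation in scipy 1.17.1. For 0 of N cells, 3 divided by N is given as the limit. Both fits and the depth estimate were run on simulated data. The simulated cells used the same assumed fragment length as the depth estimate, so that run cannot test the assumption. Same-numbered captures of different days were not paired, since the sources do not state that they belong together. The deviations of the same number correlated by -0.0068 to 0.025. These values cannot decide it, since the deviations of a day with 2 captures mirror each other.

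Named genes are the 9 members, and pathway genes that were called or detected in at least 25% of cells of a kind were eligible. Members and lists were chosen with earlier results of these data known. Alternatives were the pseudocount, filter, scaling, cell filter, kind limits, block and leaving out captures. Leaving out cells with nearly equal profiles or with Col1a1 was added after seeing the data.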

Additional observations from a re-analysis of the deposited data

Results flagged for a closer look

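Cd44 in myeloid minus matrix cells had a log2 difference of -2.03 in PWD 15 capture 2, which stood apart from the other 3 captures, the nearest at -0.08. It was the only one of 12 sets of captures in which a value stood apart by Dixon's criterion, which chance alone exceeds in about 1 of 20 sets. That capture held 4 myeloid cells, and without it the difference was 0.11.

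Several differences between kinds had opposite signs on different days, with 1 to 3 captures a day, and these changes of sign were not tested. For Has2 the mural minus matrix difference was 1.2 at PWD 12 and 1.63 at PWD 15 but -2.0 at PWD 21, where 8 mural cells of 1 capture were compared with 18 matrix cells. For Cd44 the mural minus matrix difference was 1.05 at PWD 12, -0.76 at PWD 15 and 2.36 at PWD 21. In the PWD 21 capture the mural mean held the cell at 2293 FPKM. For myeloid minus matrix cells, Cd44 was at 0.21 at PWD 12 and -2.03 at PWD 15, Tnfaip6 at -3.66 and 0.24, and Hyal1 at 4.03 and -1.52. Tnfaip6 was at -5.56 at PWD 21. The Tnfaip6 value of PWD 15 came with 2 of 4 myeloid cells that had Col1a1 of at least 1000 FPKM.

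The 11 kept cells of no kind entered no comparison. Has2 was detected in 5 of these 11 (highest value 7.87 FPKM), Cd44 in 10 (593.3 FPKM), Vcan in 10 (797.0 FPKM), Tnfaip6 in 8 (233.8 FPKM) and Hyal1 in 4 (0.86 FPKM). Of these cells 6 had Col1a1 of at least 1000 FPKM.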

How the results depend on the processing

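With 4 or 5 captures for the kinds and 2 or 3 for a day, small differences could not be seen, and the depth per cell limits the sparse members. The near-equal profiles and the Col1a1 limit below were chosen after seeing the data. For mural against matrix cells, 1 member was called as reported. It became 0 without a variance trend, without the filter on low values, with a pseudocount of 0.1 FPKM, with halved kind limits, without the replicate block and without 1 cell of each pair of nearly equal profiles. It became 2, with Vcan added, over all cells in the files, with a filter at 10 FPKM, with the mean of log2 values and without cells that had Col1a1 of at least 1000 FPKM. For myeloid against matrix cells 1 became 0 with at least 5 cells of a kind in a capture and without a filter, and 2 with the mean of log2 values and without cells that had Col1a1 of at least 1000 FPKM. That last choice also dropped PWD 15 capture 2, with under 3 myeloid cells left, and kept 3 captures. Leaving out a capture gave 0 to 0 called members in every comparison by limma. For shares it was 0 to 0 as well, which says nothing for the kinds, where no share could pass at this number of captures. Without the block of captures, Vcan in myeloid cells kept its call, with a count of 1. With capture number as a replicate block between days, 0 members were called, as without it. The sources do not state that same-numbered captures of different days belong together. The number of all genes called for mural against matrix cells was 234 and ranged from 16 without a filter to 651 with the mean of log2 values, and for myeloid cells it was 859 and ranged from 30 to 1370. Rescaling every cell to the same total moved the median of all genes from -0.22 to -0.32 for mural and from -1.0 to -1.2 for myeloid cells. In no alternative was a member called between days.

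The direction of some uncalled differences turned, and the cause was not tested. With a capture left out, where a day with a single capture is assumed to vary like the others, Cd44 ran from -0.27 to 0.95 between PWD 15 and 12, from -0.58 to 0.64 between PWD 21 and 15 and from -0.64 to 0.11 in myeloid cells, with detection from -18.5 to 3.28 points. Has1 ran from -1.41 to 1.36 (PWD 15 against 12), -1.88 to 0.19 (21 against 12), -2.44 to 0.32 (21 against 15) and -0.23 to 0.11 (mural). Has2 ran from -0.80 to 0.17 (21 against 15), and Hyal2 from -1.24 to 3.63 (15 against 12) and -4.65 to 0.22 (21 against 15). Tnfaip6 ran from -0.22 to 0.63, -0.013 to 0.84 and -0.068 to 0.49 in the 3 comparisons of days in the order used for Has1. Vcan ran from -0.023 to 1.30 (21 against 12) and -0.93 to 0.40 (21 against 15). Cd44 also turned to -0.027 between PWD 21 and 15 with halved limits, and in myeloid cells to 0.20 with at least 5 cells and 0.072 without cells that had Col1a1 of at least 1000 FPKM, which drops PWD 15 capture 2 as well. Has1 turned to 0.065 with the mean of log2 values and 0.30 with a pseudocount of 0.1 (PWD 15 against 12), and in mural cells to 0.088 with the mean of log2 values and 0.052 with a pseudocount of 10. Hyal2 turned to -0.060 with the mean of log2 values (PWD 15 against 12).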
